A study of Mus musculus with 8 samples.

Results

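The genes described here are 37 genes of neuronal differentiation and of the synapse, from transcription factors of young neurons to the proteins of vesicle release, followed through mouse neural progenitor cells (NPC) and 72 h of reprogramming. They were chosen by name: every probe of the array that is not a control and whose accession leads, through RefSeq, to a listed symbol was taken as a member's probe. Of the 37 genes, 36 had a probe, and Ina, a neurofilament protein of early neurons, had none. All 36 belong to the 18836 genes with a value on all 8 arrays, whether or not it was above background. A gene was tested where some group had its probe well above background on each of its 2 arrays, which 24 members met and 12 did not, among 13615 genes tested in all. A member that reached the test only through a group where it is bright was bound to differ, so counts over the 24 are descriptions.

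As background, a neural progenitor that leaves the cell cycle first switches on transcription factors such as Insm1, then RNA-binding proteins of the Elavl family, and then the proteins of its growing axon, among them stathmins, Gap43 and neurofilaments. Synaptic vesicle proteins follow, with synaptotagmin as the calcium sensor of release and syntaxin, VAMP and SNAP-25 as the proteins that fuse the vesicle with the membrane. Dlx transcription factors and the 2 glutamate decarboxylases mark the branch of neurons that release GABA. Outside neurons many of these genes are held off by the repressor REST and its partners.

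Total RNA of N31 cells, neural progenitors derived from mouse embryonic stem cells, was labelled with Cy3 and hybridised to Agilent whole mouse genome arrays in 4 groups of 2. Cells that ectopically express EGFP, a fluorescent protein and the control here, or W20, which the series title places among bacterial proteins that speed up reprogramming, were taken as NPC in medium with EGF and bFGF, each at 10 ng/ml. Cells of both kinds were also taken 72 h after reprogramming was started. By the labels those cells received Dox at 40 ng/ml, spending the opening 48 h in NPC medium and the closing 24 h in one with 10% KSR, 1 µM ACTH and LIF at 1000 U/ml. The labels do not say which factors Dox switched on, which promoter drove EGFP or W20, or whether the lines are clones, and age and strain are not given. Nothing in them says that the 2 replicates of a group were separate cultures, so the p-values reflect array-to-array spread only, possibly technical.

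Levels are log2 of the processed signal relative to the 75th percentile of the same array, so a level of 0 is the brightness of that percentile and a difference of 1 is 2-fold. The lowest signal well above background lay between -5.84 and -5.04 on this scale. The share of spots well above background was 57.0% to 62.4% by array, none was saturated, replicate arrays correlated across probes with r of 0.9984 to 0.9988, and the median SE of a W20 difference was 0.049, so small differences passed. All 4 NPC arrays lay on 1 slide and all 4 arrays of 72 h on another, so stage and slide cannot be told apart, and medium, Dox and time differ between the stages as well. On both slides EGFP samples took positions 1 and 2 and W20 samples positions 3 and 4, so position and W20 cannot be told apart either. Of 15 progenitor markers, 9 were well above background on all 8 arrays, among them Nes, Sox2, Pax6, Vim and Sox9, and Olig2 on none. These are bulk samples, in which fewer cells of a type and less RNA per cell cannot be told apart.

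Many members were at background. Of the 36 with a probe, 10 were well above background on no array: the transcription factors Nhlh1, Myt1 and St18, the stathmin Stmn3, the neurofilament protein Nefm, the axonal adhesion protein Cntn2, the fusion protein Snap25, the vesicle protein Syp, the vesicular glutamate transporter Slc17a6 and the granule protein Scg2. Their levels over the 8 arrays ran from -7.83 to -7.02 for Nhlh1, -8.00 to -7.17 for Myt1 and -7.09 to -6.29 for St18. Among the structural genes they ran from -7.64 to -6.74 for Stmn3, -7.90 to -7.10 for Nefm and -7.82 to -6.35 for Cntn2. Among the synaptic genes they ran from -7.71 to -6.83 for Snap25, -7.36 to -6.41 for Syp, -7.42 to -5.97 for Slc17a6 and -7.75 to -6.71 for Scg2. Another 2 failed the filter with a signal on single arrays. Gad1, a glutamate decarboxylase, was above background on 1 array, EGFP NPC replicate 2, at -4.97 against -7.79 on the other array of that group. Dcx, the microtubule protein doublecortin of migrating neurons, was above background on 3 arrays, all of them the arrays numbered replicate 1: it stood at -4.22 against -7.80 in EGFP NPC, at -5.36 against -7.97 with EGFP at 72 h and at -2.74 against -7.17 with W20 at 72 h. In W20 NPC it was at background on both, at -7.71 and -6.70. The other 2 Dcx probes were above background on no array. At the other end, 15 members were well above background on all 8 arrays.

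The upstream sequences of the members that share a direction or a motif are shown for reference. The RefSeq promoter table for GRCm38.p6 held 24 of the 37 members, in 35 windows of the 250 bases before an annotated transcript start. Windows were searched on both strands for GGACAGC and TCAGCACC, the right and left core letters of the element that REST binds, and for CANNTG, the E-box letters bound by proneural factors. GGACAGC stood in the windows of Gad2, Map2 and Scg2 and in 5.28% of all 32851 windows. TCAGCACC stood in that of Syn1 and in 1.32% of all, and CANNTG in 24 of the 35 windows and 66.2% of all. Median GC content was 56.4% in the members' windows and 52.4% over all. Dlx1 and Dlx2, neighbours on chromosome 2 that face each other, are shown because they moved together in every comparison, and Gad2 and Map2 because they were tested and hold GGACAGC, which is in capitals (as GCTGTCC where it lies on the other strand). In Gad2 it begins 155 and in Map2 220 bases before the transcript start that the window belongs to. That start is not always the first of the gene. The windows of Gad2 and Dlx1 lie inside genes that begin at chr2:22621015 and chr2:71528113. The Map2 window runs past the gene start at chr1:66175202. The windows lie at chr2:71529195-71529444 (plus strand, Dlx1), chr2:71546755-71547004 (minus strand, Dlx2), chr2:22622077-22622326 (plus strand, Gad2) and chr1:66175079-66175328 (plus strand, Map2). A match is a description of letters and not a binding site.
Dlx1: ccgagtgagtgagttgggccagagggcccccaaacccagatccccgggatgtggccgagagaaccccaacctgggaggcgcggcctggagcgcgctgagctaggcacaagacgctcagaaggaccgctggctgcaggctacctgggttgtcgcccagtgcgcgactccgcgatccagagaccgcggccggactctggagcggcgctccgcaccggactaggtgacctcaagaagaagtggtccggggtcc
Dlx2: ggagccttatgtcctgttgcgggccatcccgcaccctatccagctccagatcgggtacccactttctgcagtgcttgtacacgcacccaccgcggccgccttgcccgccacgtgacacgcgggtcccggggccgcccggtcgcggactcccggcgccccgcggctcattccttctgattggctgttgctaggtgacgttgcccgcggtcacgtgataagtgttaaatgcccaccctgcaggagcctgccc
Gad2: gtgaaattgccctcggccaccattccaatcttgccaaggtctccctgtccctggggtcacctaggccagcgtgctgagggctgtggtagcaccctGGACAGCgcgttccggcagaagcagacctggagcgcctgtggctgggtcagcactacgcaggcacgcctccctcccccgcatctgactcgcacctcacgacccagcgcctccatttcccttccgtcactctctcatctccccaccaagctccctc
Map2: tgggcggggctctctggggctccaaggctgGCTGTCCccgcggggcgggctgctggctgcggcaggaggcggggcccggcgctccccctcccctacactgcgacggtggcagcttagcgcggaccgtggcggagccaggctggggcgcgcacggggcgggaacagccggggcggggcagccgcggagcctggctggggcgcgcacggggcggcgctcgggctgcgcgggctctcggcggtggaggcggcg

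Over the 72 h of reprogramming in EGFP cells, Stmn2 (8.66-fold), Syt1 (6.34-fold), Nefl (3.48-fold), Gad2, Mapt and Stmn4 rose. Insm1, Gap43, Elavl3 and Elavl4 rose from below background, Insm1 by at least 12.9-fold, and since these 4 passed the filter only through the 72 h groups, their p-values over 72 h add nothing to that. Dlx1, Dlx2, Dlx5, Ncam1, Stx1a, L1cam, Map2 and Stmn1 fell. In all, 11 of the 24 tested members rose and 8 fell, 79.2% of them, with 69.9% of all genes tested called (36.1% higher and 33.8% lower). Vamp2, among the 11, had probes of both signs and is given no direction. The members' median difference was 0.01, as was that of all genes. At 2-fold or more on the fitted scale, 9 members rose and 3 fell, with 13.3% of all genes at that size (6.71% higher and 6.59% lower). Elavl3 and Elavl4 reached it only by values below background. Among the 15 members above background on every array the number was 8, with 9.71% of the 12157 such genes. Without EGFP NPC replicate 2 the count of members that fell was 4, those ending being Dlx5, Map2, Stmn1 and L1cam.

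**Figure D1:**
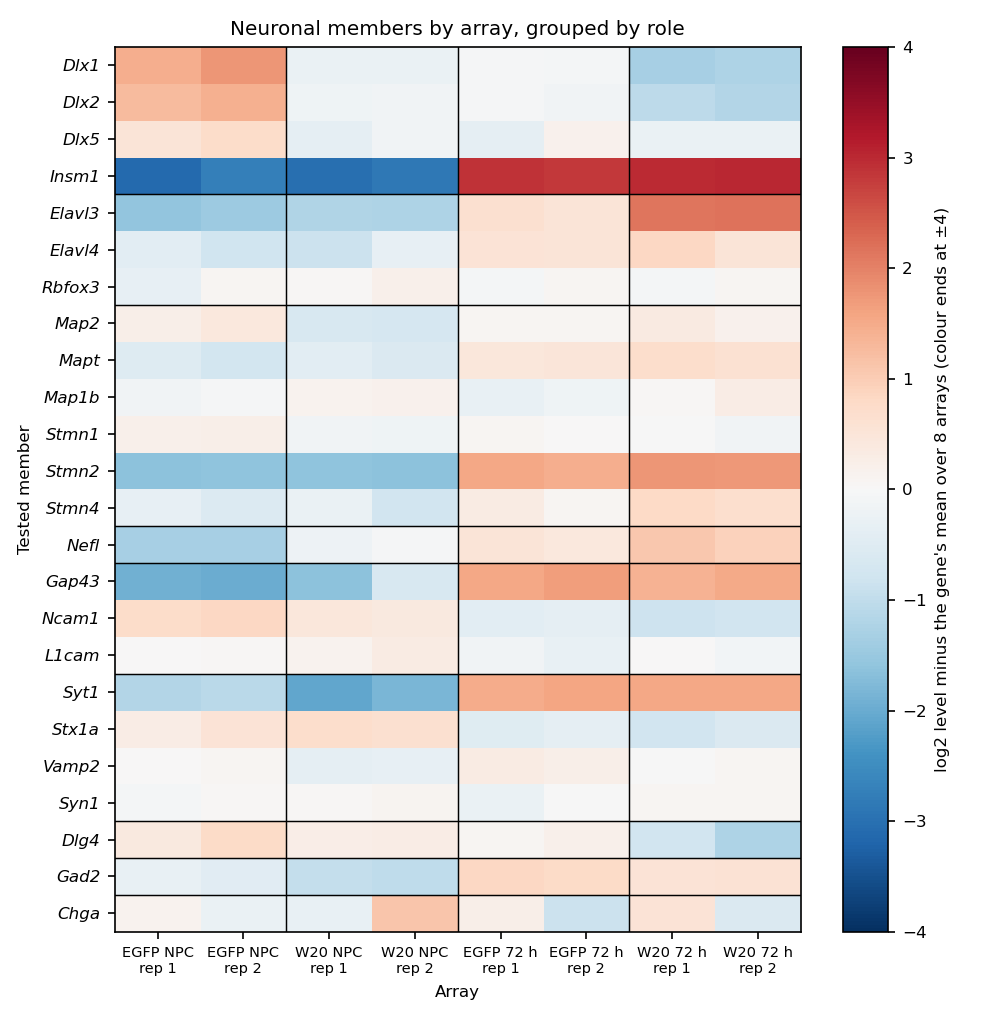
Each tested member (rows, grouped by role) on each of the 8 arrays (columns) is coloured by its log2 level minus its own mean over the arrays. Insm1, Stmn2, Syt1, Gap43 and Elavl3 are above their mean on the 4 arrays of 72 h and below it on the 4 NPC arrays, while Dlx1 and Dlx2 are highest on the EGFP NPC arrays and lowest on the W20 arrays of 72 h.

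In W20 cells the same comparison, which uses arrays of its own, gave 12 rises and 6 falls among the 24, with 74.6% of all genes called (37.5% higher and 37.2% lower). The members' median difference was 0.23, or 0.22 with the members that are dim in a group set at their bound, and that of all genes was 0.01. Of the members measured in both groups Syt1 (11.3-fold) and Stmn2 (10.4-fold) rose most and Stx1a, Ncam1 and Dlx1 fell most, and Insm1 rose by at least 12.3-fold. At 2-fold or more on the fitted scale, 10 members rose and 4 fell, with 17.8% of all genes called at that size (8.68% higher and 9.12% lower). Elavl4 and Dlg4 reached it only by values below background, their bounds being under 2-fold. The number was 8 among the 15 above background on every array, with 14.1% of such genes. Both kinds of cells showed a rise for 11 members, Vamp2 counted by its brightest probe, and a fall for 5. The share of all genes called alike in both kinds was not counted, so these numbers are descriptions. Map2 was the member called in both with opposite signs: it fell by little in EGFP cells and rose in W20 cells. Its call with EGFP ended under 10 of 17 alternatives.

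**Figure D2:**
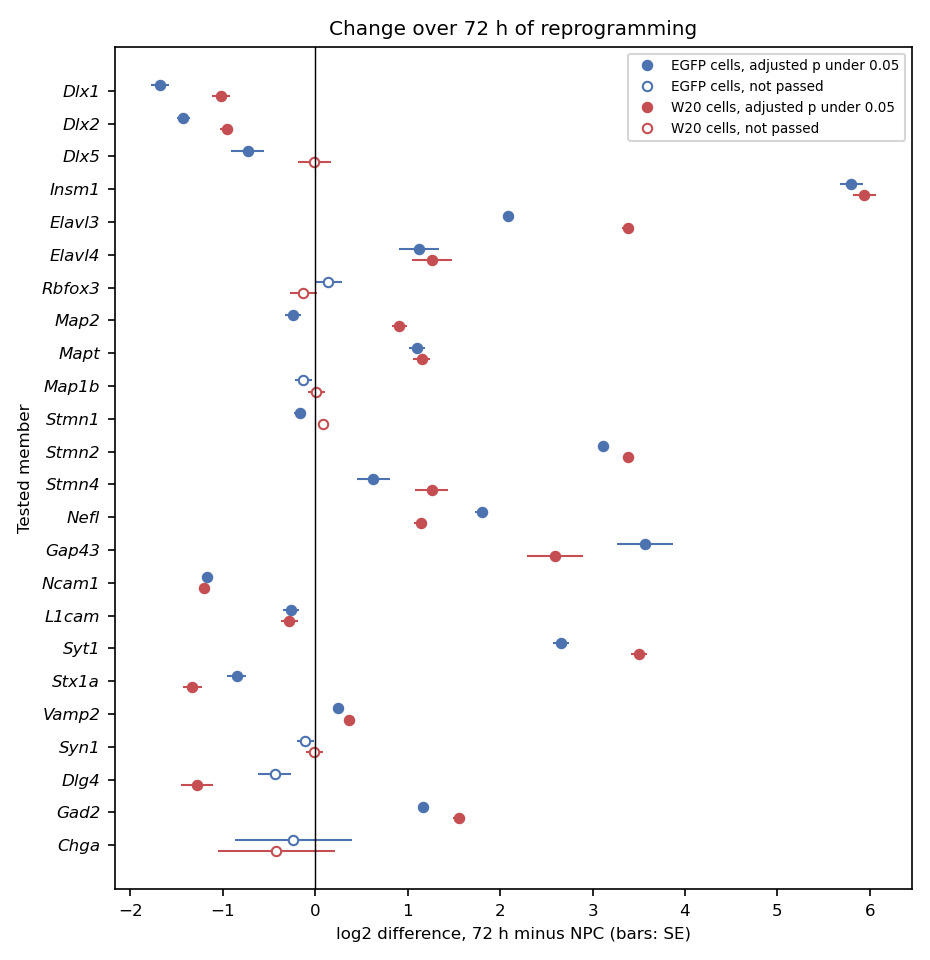
Points give the change of each tested member over 72 h (log2 difference, 72 h minus NPC, x axis) in EGFP and W20 cells, with bars for the SE; open points did not pass. Insm1 lies at 5.80 and 5.94, Syt1 and Stmn2 between 2.66 and 3.50, and Dlx1, Dlx2, Ncam1 and Stx1a lie left of 0; Map2 lies on opposite sides of 0 in the 2 kinds of cells.

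Between W20 and EGFP cells as NPC, which asks what W20 does before reprogramming begins, Dlx1, Dlx2, Map2, Dlx5, Syt1, Gad2, Stmn1, Vamp2 and Ncam1 were lower with W20, and Nefl and Elavl3 were called higher, Elavl3 with both groups below background. That is 2 higher and 9 lower of 24, or 45.8%, with 55.4% of all genes called (31.8% higher and 23.7% lower). The members' median was -0.01 and that of all genes 0.04. At 2-fold or more, 1 member rose (Nefl) and 2 fell (Dlx1 and Dlx2), with 4.06% of all genes at that size (1.11% higher and 2.95% lower). All 3 are among the 15 above background on every array, where 2.43% of genes reached that size. Without EGFP NPC replicate 2 the count of members called higher was 4, and with array medians as the scale it was 5. Of the marker lists, all 8 mesenchymal genes were lower with W20 in NPC, none of them at background with EGFP, their summed signal falling from between 7.21 and 7.39 with EGFP to between 6.64 and 6.68 with W20 (log2 of the summed signal), and 4 of 6 tested astrocyte markers were lower. The part of such cells in the members' differences was not tested.

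At 72 h, 5 members were higher and 6 lower with W20 of the 24 tested, again 45.8%, with 52.7% of all genes called (28.4% higher and 24.4% lower). With spike-in scaling, 40.3% of the calls over all genes were higher, against 53.8%, and 2 members in place of 5 were. Elavl3, Nefl, Stmn4, Map1b and Stmn2 were higher, and Dlx1, Dlg4, Dlx2, Ncam1, Vamp2 and Gad2 lower. The members' median was 0.07 and that of all genes 0.03. At 2-fold or more on the fitted scale, 1 member was higher (Elavl3) and 3 lower (Dlx1, Dlx2 and Dlg4, the last with a bound under 2-fold), with 3.34% of all genes at that size (0.911% higher and 2.43% lower). Dlx1 and Dlx2 were the 2 of the 15 above background on every array, where 2.06% of genes reached that size. Of the 24, 2 were called higher at both stages (Nefl and Elavl3) and 5 lower at both (Dlx1, Dlx2, Ncam1, Vamp2 and Gad2). The share of all genes called alike at both stages was not counted. Without EGFP 72 h replicate 1 the count of members called higher was 3, Map1b and Stmn4 ending. Mesenchymal markers were again lower with W20, 7 of 8, with summed signals of 6.49 to 6.54 against 7.09 to 7.12, and whether they bear on the members was not tested.

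**Figure D3:**
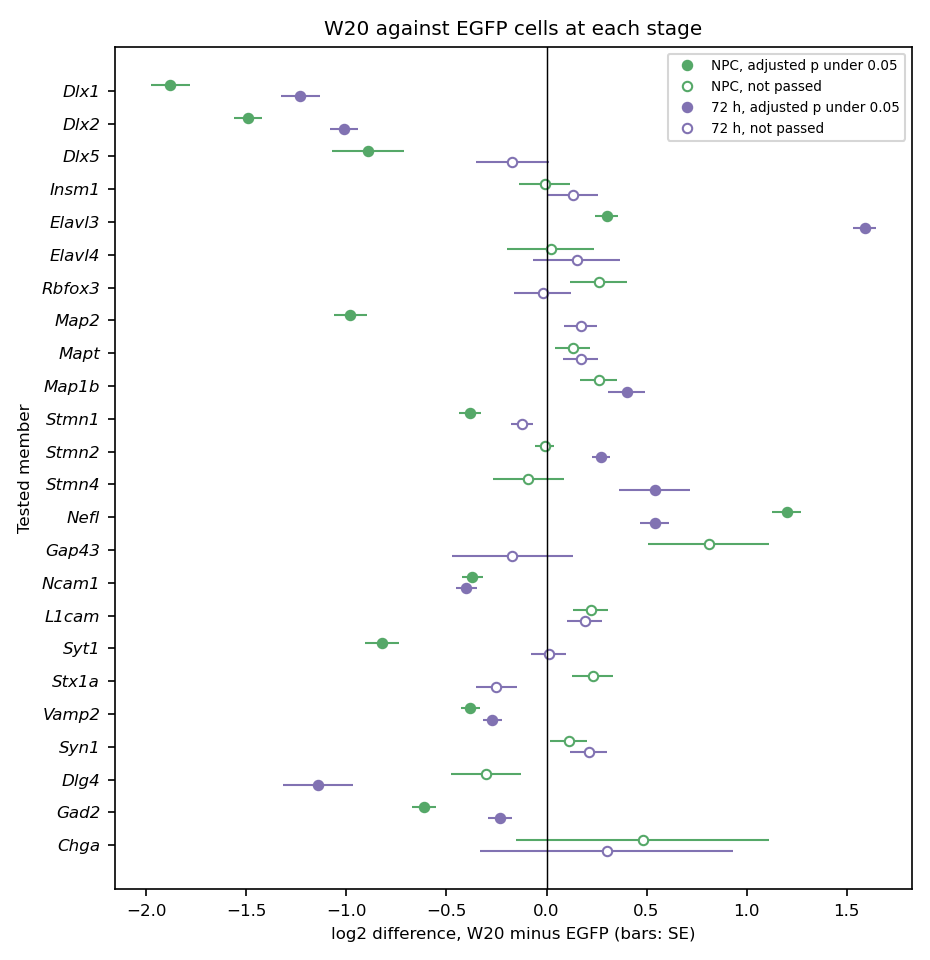
Points give the difference between W20 and EGFP cells for each tested member (log2, W20 minus EGFP, x axis) as NPC and at 72 h, with bars for the SE; open points did not pass. Dlx1 and Dlx2 lie left of 0 at both stages and nearer to it at 72 h, Elavl3 reaches 1.59 at 72 h, and Map2 and Syt1 are lower with W20 in NPC but not called at 72 h.

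The difference between the 2 W20 effects, tested directly as the effect at 72 h minus that in NPC, passed for 8 of 24 members, 7 of them positive, with 30.8% of all genes called (13.9% positive and 16.9% negative). Its median was 0.14 over the members and -0.02 over all genes. Elavl3 (1.29 ± 0.079), Map2 (1.15 ± 0.118), Syt1 (0.83 ± 0.12), Dlx1 (0.65 ± 0.138), Dlx2 (0.48 ± 0.099), Gad2 (0.38 ± 0.085) and Stmn2 (0.27 ± 0.063) were positive and Nefl (-0.66 ± 0.104) negative, as log2 values ± SE. Adjusted p ran from 0.000379 (Elavl3) to 0.0249 (Stmn2). The NPC part of the Elavl3 value rests on signals below background. Neither its size nor its call is thus a measured difference between the stages. On the fitted scale Elavl3 and Map2 reached 2-fold, with 3.92% of all genes at that size (2.11% positive and 1.81% negative), and Map2 was the 1 of the 15 above background on every array, where 2.46% of genes did. The positive calls numbered 3 without W20 NPC replicate 2, and 4 without W20 NPC replicate 1 or EGFP 72 h replicate 2. Map2 and Nefl were called under all 16 alternatives, and Elavl3 under the 15 that tested it. The filter for signal on all arrays leaves Elavl3 out. The call ended under 11 of 16 alternatives for Stmn2, 10 for Gad2, 5 for Dlx1, 3 for Dlx2 and 1 for Syt1.

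Of the transcription factors, 4 of 7 were tested. Dlx1 and Dlx2, homeobox factors of the GABA lineage, were highest in EGFP NPC and stepped down with W20 and with reprogramming. Dlx1 stood at -0.39 and -0.09 in EGFP NPC, -2.11 and -2.13 in W20 NPC, -1.90 and -1.94 with EGFP at 72 h, and -3.19 and -3.10 with W20 at 72 h. No groups overlapped, with W20 NPC and EGFP at 72 h the closest. Dlx1 fell with W20 by 1.88 ± 0.097 (SE) on the log2 scale in NPC (3.68-fold, adjusted p = 0.000108) and by 1.23 ± 0.097 at 72 h (2.34-fold, adjusted p = 0.000342). Over the 72 h it fell by 1.68 ± 0.097 with EGFP (adjusted p = 2.89e-05) and by 1.02 ± 0.097 with W20 (adjusted p = 0.000172).

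Dlx2 showed the same order, with levels of 2.13 and 2.28 in EGFP NPC, 0.70 and 0.73 in W20 NPC, 0.81 and 0.73 with EGFP at 72 h, and -0.17 and -0.31 with W20 at 72 h. Its W20 NPC and EGFP 72 h groups met at 0.73. It fell with W20 by 1.49 ± 0.07 in NPC (2.81-fold, adjusted p = 8.84e-05) and by 1.01 ± 0.07 at 72 h (2.02-fold, adjusted p = 0.000221). Over the 72 h it fell by 1.43 ± 0.07 with EGFP and by 0.96 ± 0.07 with W20 (adjusted p = 1.5e-05 and 5.48e-05). Dlx5, a relative of both, was near background: -4.55 and -4.35 in EGFP NPC, -5.45 and -5.22 in W20 NPC, -5.44 and -4.92 with EGFP at 72 h, and -5.35 and -5.33 with W20 at 72 h. The EGFP NPC arrays were the highest. It fell with W20 in NPC by 0.89 ± 0.18 (adjusted p = 0.00818) and over 72 h with EGFP by 0.73 ± 0.18 (adjusted p = 0.0124), and both calls ended without EGFP NPC replicate 2 (adjusted p = 0.0522 and 0.0696). With normexp the W20 difference in NPC was -0.40, and without EGFP 72 h replicate 1 the difference over 72 h was -0.47.

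Insm1, a zinc-finger factor that newly born neurons and endocrine cells switch on, was not well above background on any NPC array (-7.93, -7.55, -7.82 and -7.68). At 72 h it stood at -1.91 and -1.97 with EGFP and at -1.83 and -1.79 with W20. The stages did not overlap. The rise was at least 12.9-fold with EGFP and at least 12.3-fold with W20, where the NPC mean is replaced by the lowest measurable signal (fitted differences 5.80 ± 0.125 and 5.94 ± 0.125). With the normexp alternative, which starts from the median spot and local background signals in place of the processed signal and adds 50 intensity units after correction, the fitted rises were 1.92 and 2.41, and the W20 difference of Dlx1 at 72 h was -0.81. Insm1 did not differ detectably between W20 and EGFP at 72 h (0.13 ± 0.125, 95% interval -0.18 to 0.44, adjusted p = 0.414).

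**Figure D4:**
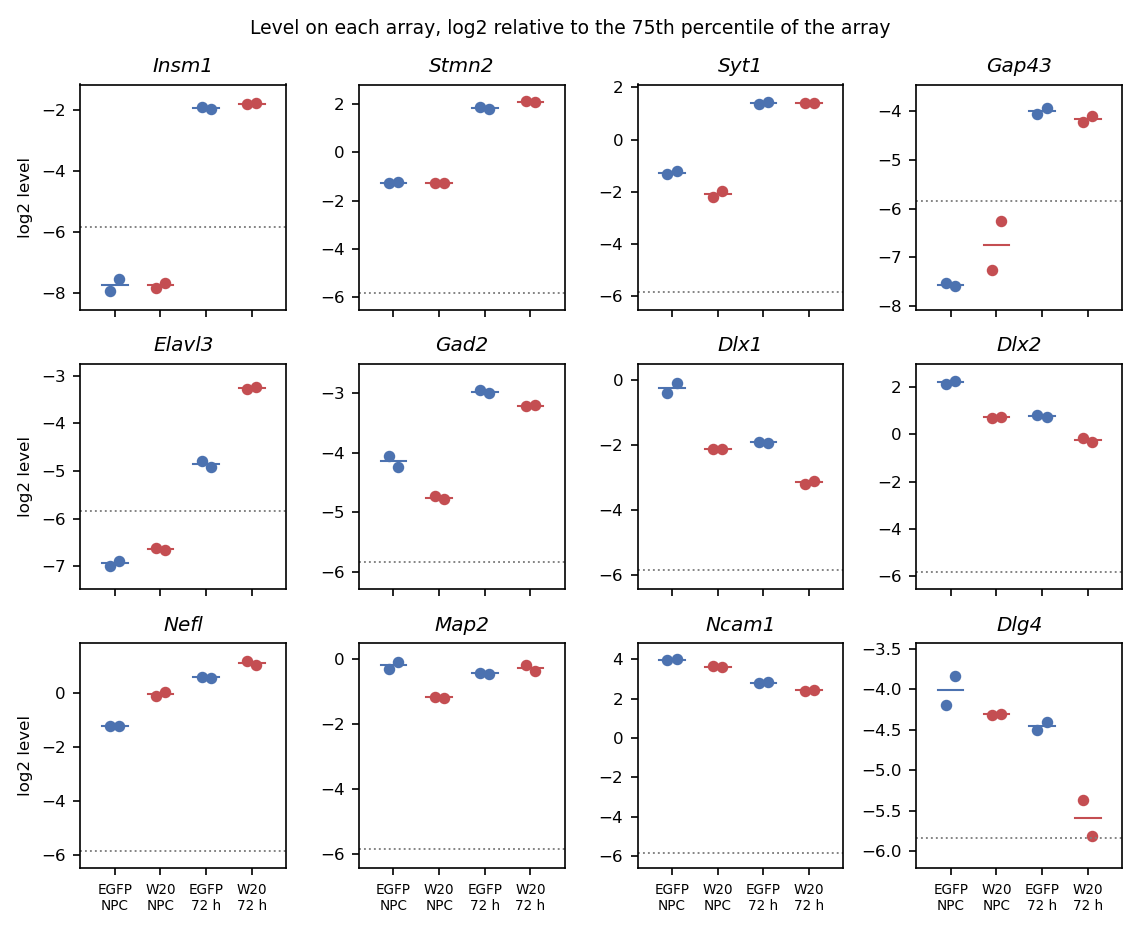
Each panel gives one member's log2 level (y axis, relative to the 75th percentile of the array; ranges differ between panels) on the 2 arrays of each group, with a bar at the group mean and a dotted line at the lowest signal well above background on any array, -5.84. Insm1, Gap43 and Elavl3 are below the line in NPC and above it at 72 h, Dlx1 and Dlx2 step down from EGFP NPC to W20 at 72 h, and Nefl steps up.

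Of the RNA-binding proteins, all 3 were tested. Elavl3, a neuronal Hu protein that stabilises transcripts, was higher with W20 at 72 h. It lay below background in NPC, at -6.99 and -6.89 with EGFP and -6.62 and -6.67 with W20, and above it at 72 h, at -4.80 and -4.91 with EGFP and -3.29 and -3.24 with W20. None of the 4 groups overlapped. At 72 h it was higher with W20 by 1.59 ± 0.056 (3.02-fold, adjusted p = 4.08e-05). Over 72 h it rose at least 1.71-fold with EGFP and at least 4.49-fold with W20 (fitted 2.09 ± 0.056 and 3.38 ± 0.056). With normexp the W20 difference at 72 h was 0.85, the rise with EGFP 0.12 (adjusted p = 0.382) and that with W20 1.16. The call in NPC (0.30 ± 0.056, both groups below background) turned to -0.19 with normexp (adjusted p = 0.213).

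Elavl4, another Hu protein, stood at -6.17 and -6.53 in EGFP NPC, -6.60 and -6.06 in W20 NPC, -5.21 and -5.24 with EGFP at 72 h and -4.91 and -5.24 with W20 at 72 h. It was above background on 3 arrays, all at 72 h. It rose at least 1.33-fold with EGFP and at least 1.28-fold with W20, and with normexp the differences were 0.00 (adjusted p = 0.976) and 0.29. Rbfox3, the nuclear antigen NeuN of mature neurons, stayed between -5.88 and -5.34, was above background on 3 arrays and passed in none of the 5 comparisons.

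Of the 8 microtubule proteins, 6 were tested, and the stathmins differed: by their brightest probes Stmn2 and Stmn4 rose over 72 h in both kinds of cells and Stmn1 in neither. Stmn2, a growth-associated stathmin of axon tips, stood at -1.29 and -1.24 in EGFP NPC and -1.26 and -1.27 in W20 NPC, then at 1.90 and 1.80 with EGFP and 2.13 and 2.10 with W20 at 72 h. The stages were far apart, and at 72 h both W20 arrays lay above both EGFP arrays. It rose 8.66-fold with EGFP (3.11 ± 0.045, adjusted p = 3.58e-07) and 10.4-fold with W20 (3.38 ± 0.045, adjusted p = 1.72e-07). At 72 h it was higher with W20 by 0.27 ± 0.045 (adjusted p = 0.00448), a call that ended with spike-in scaling (adjusted p = 0.0946).

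Stmn1, the stathmin of dividing cells and early neurons, was bright throughout, at 6.14 and 6.18 in EGFP NPC, 5.80 and 5.77 in W20 NPC, 6.02 and 5.96 with EGFP at 72 h and 5.94 and 5.80 with W20 at 72 h. It fell with W20 in NPC by 0.38 ± 0.055 (adjusted p = 0.00238). With EGFP over 72 h it fell by little (-0.17 ± 0.055, adjusted p = 0.0332), a call that ended under 11 of 17 alternatives. With W20 the difference over 72 h was 0.08 (adjusted p = 0.219) by the brightest probe, 0.28 (adjusted p = 0.00582) by the other, 0.18 (adjusted p = 0.027) as their mean and 0.15 (adjusted p = 0.0363) without W20 72 h replicate 2. Stmn4 was dim, at -5.29 and -5.51 in EGFP NPC, -5.25 and -5.74 in W20 NPC, -4.66 and -4.89 with EGFP at 72 h and -4.18 and -4.29 with W20 at 72 h. It rose by 1.26 ± 0.179 over 72 h with W20 (adjusted p = 0.00106) and by 0.63 ± 0.179 with EGFP (adjusted p = 0.0217). The EGFP call ended without EGFP NPC replicate 2 or EGFP 72 h replicate 1 (adjusted p = 0.109 and 0.112) and turned to -0.08 with normexp, where the W20 value was 0.44. The W20 difference of Stmn4 at 72 h (0.54 ± 0.179, adjusted p = 0.0481) ended under 11 of 16 alternatives.

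Map2, the dendritic microtubule protein, stood at -0.30 and -0.11 in EGFP NPC, -1.16 and -1.20 in W20 NPC, -0.44 and -0.46 with EGFP at 72 h and -0.18 and -0.37 with W20 at 72 h. The W20 NPC arrays were the lowest, below every array of the other 3 groups. It fell with W20 in NPC by 0.98 ± 0.083 (1.97-fold, adjusted p = 0.000394) and rose over 72 h with W20 by 0.91 ± 0.083 (1.88-fold, adjusted p = 0.000147). The fall with EGFP over 72 h (-0.24 ± 0.083, adjusted p = 0.0428) ended under 10 of 17 alternatives. At 72 h the W20 difference was 0.17 ± 0.083 (adjusted p = 0.129). Map1b, the microtubule protein of growing axons, stood at 2.14 and 2.23 in EGFP NPC, 2.43 and 2.46 in W20 NPC, 1.98 and 2.12 with EGFP at 72 h and 2.33 and 2.58 with W20 at 72 h. It was higher with W20 at 72 h by 0.40 ± 0.092 (adjusted p = 0.014), which ended without EGFP 72 h replicate 1 (adjusted p = 0.075) and with spike-in scaling (adjusted p = 0.0676). Mapt, the axonal protein tau, ranged from -4.95 to -3.52 and rose by 1.10 ± 0.087 with EGFP and 1.15 ± 0.087 with W20 (adjusted p = 9.79e-05 and 6.24e-05), the values being 0.20 (adjusted p = 0.0591) and 0.54 with normexp, and 1.69 and 1.80 as the mean of its 3 probes.

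Nefl, the light chain of the neurofilament, was the tested neurofilament gene and rose along both axes of the study. It stood at -1.22 and -1.23 in EGFP NPC, -0.11 and 0.05 in W20 NPC, 0.61 and 0.54 with EGFP at 72 h and 1.19 and 1.04 with W20 at 72 h. The 4 groups did not overlap. It was higher with W20 by 1.20 ± 0.074 in NPC (2.29-fold, adjusted p = 0.000162) and by 0.54 ± 0.074 at 72 h (1.45-fold, adjusted p = 0.0021). Over 72 h it rose by 1.80 ± 0.074 with EGFP (3.48-fold, adjusted p = 7.93e-06) and by 1.14 ± 0.074 with W20 (2.21-fold, adjusted p = 3.18e-05). Nefm, its medium chain, stayed at background on all arrays.

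Among the axon growth and adhesion genes, 3 of 4 were tested. Gap43, the growth-cone protein, was not well above background in NPC (-7.53 and -7.59 with EGFP, -7.26 and -6.25 with W20) and stood at -4.06 and -3.94 with EGFP and -4.22 and -4.11 with W20 at 72 h. It rose at least 3.11-fold with EGFP and at least 2.40-fold with W20 (fitted 3.57 ± 0.304 and 2.59 ± 0.304), and with normexp the differences were 0.54 and 0.65. Ncam1, the neural cell adhesion molecule of progenitors and neurons, went the other way. It stood at 3.94 and 4.02 in EGFP NPC, 3.65 and 3.58 in W20 NPC, 2.77 and 2.84 with EGFP at 72 h and 2.37 and 2.45 with W20 at 72 h, with no overlap between groups. It fell by 1.17 ± 0.053 with EGFP (2.25-fold, adjusted p = 1.12e-05) and by 1.20 ± 0.053 with W20 (2.30-fold, adjusted p = 6.63e-06). Its W20 differences were -0.37 ± 0.053 in NPC and -0.40 ± 0.053 at 72 h (adjusted p = 0.00219 and 0.00192). A dimmer probe of Ncam1 hardly differed with W20. It stood at -2.39 and -2.41 in EGFP NPC and -2.49 and -2.42 in W20 NPC. At 72 h it stood at -2.76 and -2.65 with EGFP and -2.71 and -2.62 with W20. On the remaining probes of Ncam1 the W20 arrays were the lower ones at both stages. L1cam, an adhesion protein of axons, ranged from -4.58 to -3.94; its changes over 72 h of -0.26 ± 0.088 with EGFP and -0.28 ± 0.088 with W20 (adjusted p = 0.0396 and 0.0265) ended in several alternatives, among them without W20 NPC replicate 2 (adjusted p = 0.128) for W20 cells.

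Of the release machinery, 4 of 6 were tested, and they did not move together: Syt1 rose over 72 h and Stx1a fell. Syt1, the calcium sensor synaptotagmin, stood at -1.32 and -1.21 in EGFP NPC, -2.20 and -1.97 in W20 NPC, 1.35 and 1.45 with EGFP at 72 h and 1.42 and 1.40 with W20 at 72 h. W20 NPC was the lowest group, and the 72 h groups overlapped. It rose 6.34-fold with EGFP (2.66 ± 0.085, adjusted p = 3.4e-06) and 11.3-fold with W20 (3.50 ± 0.085, adjusted p = 7.99e-07), fell with W20 in NPC by 0.82 ± 0.085 (adjusted p = 0.00071) and differed by 0.01 ± 0.085 at 72 h (95% interval -0.20 to 0.22, adjusted p = 0.927). Stx1a, the plasma membrane fusion protein syntaxin, stood at -1.13 and -0.87 in EGFP NPC, -0.73 and -0.80 in W20 NPC, -1.91 and -1.78 with EGFP at 72 h and -2.18 and -2.02 with W20 at 72 h. It fell by 0.85 ± 0.103 with EGFP (adjusted p = 0.000617) and 1.33 ± 0.103 with W20 (2.52-fold, adjusted p = 6.93e-05). Syn1, the vesicle phosphoprotein synapsin, was bright, at 3.44 and 3.55, 3.56 and 3.64, 3.25 and 3.51, and 3.60 and 3.58 in the same order of groups, and passed in no comparison by its brightest probe.

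Vamp2, the vesicle partner of syntaxin, had 3 probes above background on all arrays that disagreed over 72 h. The brightest stood at 0.83 and 0.89 in EGFP NPC, 0.46 and 0.49 in W20 NPC, 1.15 and 1.07 with EGFP at 72 h and 0.80 and 0.89 with W20 at 72 h, a difference over 72 h of 0.25 with EGFP and 0.37 with W20. The other probes differed by -0.35 and -0.31 with EGFP and by -0.15 and -0.14 with W20, so no direction is given. At 72 h the brightest was lower with W20 (-0.27 ± 0.048, adjusted p = 0.00574; 0.0696 with spike-in scaling), while the others, at -0.07 and -0.06, did not pass. In NPC all 3 were lower with W20, at -0.38, -0.27 and -0.24. Syn1 had another probe at -0.78 with EGFP and -1.24 with W20, both called, where the brightest did not pass. At 72 h it was lower with W20 (-0.38, adjusted p = 0.00136) while the brightest stood at 0.21 (not passed), and its W20 effect differed between the stages (-0.47, adjusted p = 0.00457). The 3 probes of Syt1 measured in all groups rose by 2.18 to 2.74 with EGFP and 2.86 to 3.53 with W20, its other 2 rose from below background by at least 1.60-fold and 2.68-fold with EGFP, the 3 of Mapt rose in both kinds of cells, and the 6 of Ncam1 all fell in both.

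**Figure D5:**
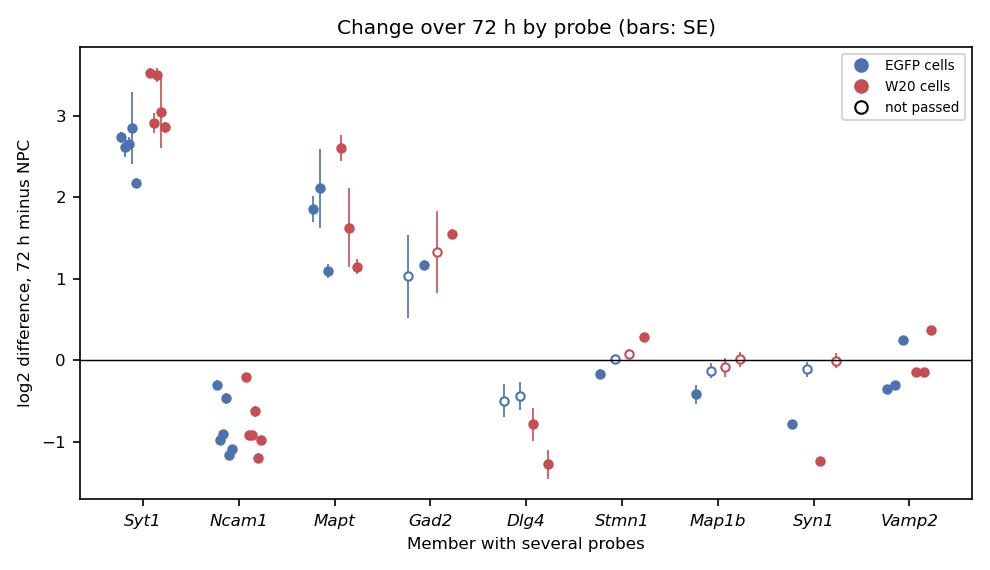
Each point is 1 probe of a member with several probes, at its log2 difference between 72 h and NPC (y axis) in EGFP or W20 cells, with bars for the SE and open points where it did not pass. Probes of Syt1, Mapt and Ncam1 lie on one side of 0, while those of Vamp2 lie on both sides and those of Syn1 differ in size.

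Dlg4, the postsynaptic scaffold PSD-95, was near background and lowest in W20 cells at 72 h. It stood at -4.19 and -3.83 in EGFP NPC, -4.32 and -4.30 in W20 NPC, -4.50 and -4.40 with EGFP at 72 h and -5.36 and -5.81 with W20 at 72 h, where it was not well above background. It was at least 1.68-fold lower with W20 at 72 h (adjusted p = 0.00319) and fell at least 1.85-fold over 72 h with W20 (adjusted p = 0.000894). With normexp both calls ended, at -0.11 (adjusted p = 0.462) and -0.22 (adjusted p = 0.125). The other, dimmer probe of Dlg4 did not pass for W20 at 72 h (-0.52, adjusted p = 0.0791). Over 72 h with W20 that probe was called lower, at -0.79 (adjusted p = 0.0134).

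Gad2, the decarboxylase that makes GABA at nerve endings, was the tested gene of transmitter synthesis. It stood at -4.05 and -4.23 in EGFP NPC, -4.73 and -4.77 in W20 NPC, -2.95 and -3.00 with EGFP at 72 h and -3.21 and -3.20 with W20 at 72 h. By this brightest probe the groups did not overlap, and W20 arrays were the lower ones at both stages. It rose by 1.17 ± 0.06 with EGFP (2.25-fold, adjusted p = 1.84e-05) and 1.55 ± 0.06 with W20 (2.92-fold, adjusted p = 4.05e-06), which with normexp was 0.44 and 0.76. It fell with W20 in NPC by 0.61 ± 0.06 (adjusted p = 0.00061; 0.0965 with the mean of its 2 probes), while the W20 difference at 72 h (-0.23 ± 0.06, adjusted p = 0.022) ended under 9 of 17 alternatives, including the loss of any single array of 72 h. The other probe of Gad2 did not pass over 72 h, at 1.03 with EGFP (adjusted p = 0.117) and 1.33 with W20 (adjusted p = 0.0546). Its W20 and EGFP arrays overlapped at both stages. By the brightest probe Gad2 thus rose over the 72 h in which Dlx1 and Dlx2 fell. Chga, the granule protein chromogranin A, varied between replicates: -4.89 and -5.30, -5.31 and -3.91, -4.80 and -5.87, and -4.46 and -5.61 in the order EGFP NPC, W20 NPC, EGFP 72 h and W20 72 h. It passed in no comparison.

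Other neuronal genes, 103 in lists of cytoskeleton, adhesion, RNA-binding, transcription factor, presynaptic, postsynaptic and transmitter genes, were read beside the members, and 72 were tested. Over 72 h 26 rose and 25 fell with EGFP (70.8% called, with 69.9% over all genes), and 30 rose and 23 fell with W20 (73.6%, with 74.6%). With W20 6 were higher and 22 lower in NPC (38.9%, with 55.4%), and 17 higher and 20 lower at 72 h (51.4%, with 52.7%). The vesicle protein Sv2b rose at least 5.96-fold with EGFP and at least 9.90-fold with W20, and the proneural factor Neurog2 at least 5.52-fold and at least 6.65-fold. Chl1, an adhesion protein of the L1 family, rose by 4.06 ± 0.196 with EGFP and 4.99 ± 0.196 with W20 (adjusted p = 1.45e-05 and 4.21e-06), and with W20 was 1.61 ± 0.196 higher at 72 h and 0.68 ± 0.196 higher in NPC. In EGFP NPC Chl1 was near background (mean -5.55), well above it on 1 array only. Its rise with EGFP and its W20 difference in NPC rest partly on that signal. The motor protein Kif1a was 1.57 ± 0.116 higher with W20 at 72 h. Among those that fell, the factor Ebf2 was at least 6.14-fold lower and the scaffold Shank3 fell by 2.17 ± 0.18 over 72 h with EGFP, and the vesicle GTPase Rab3b fell by 2.53 ± 0.063 and the kinase subunit Camk2b by 2.18 ± 0.317 with W20. With W20 in NPC the glutamate receptor Gria2 was at least 1.55-fold lower and the endocytic protein Amph fell by 1.53 ± 0.157. At 72 h Crmp1, an axon guidance protein, fell with W20 by 1.18 ± 0.065, and the granule chaperone Scg5 was called lower with a W20 signal too near background for a fold. The W20 effect differed between the stages for Crmp1 (-1.25 ± 0.092) and Rab3b (-1.15 ± 0.089), and by fitted values that include signals below background for Gria2 (2.34 ± 0.292) and the acetylcholine enzyme Chat (1.97 ± 0.394).

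Of 12 genes of the REST complex, 11 were tested, all above background on all 8 arrays. With W20 none was higher and 5 were lower in NPC (45.5% called, with 55.4% over all genes), and 3 were higher and 3 lower at 72 h (54.5%, with 52.7%). Over the 72 h 4 rose and 5 fell with EGFP (81.8%, with 69.9%), and 6 rose and 4 fell with W20 (90.9%, with 74.6%). Rest itself differed by -0.23 ± 0.04 with W20 in NPC (adjusted p = 0.00494), fell by 0.16 ± 0.04 over 72 h with EGFP (adjusted p = 0.014), and with W20 differed by -0.02 ± 0.04 (adjusted p = 0.712). The corepressor Rcor2 was 0.62 ± 0.045 higher with W20 at 72 h and rose by 0.66 ± 0.045 over 72 h with W20, and the deacetylase Hdac2 rose by 0.40 ± 0.03 with EGFP and 0.78 ± 0.03 with W20. The demethylase Kdm1a rose by 0.37 ± 0.047 with EGFP. The corepressors Rcor3 and Sin3a fell over 72 h, Rcor3 at -0.34 ± 0.045 with EGFP and -0.44 ± 0.045 with W20, and Sin3a at -0.27 ± 0.046 and -0.43 ± 0.046. At 72 h Rcor1 was 0.26 ± 0.034 higher with W20 and Rcor3 lower (-0.23 ± 0.045). The phosphatase Ctdsp2 was lower with W20 at both stages (-0.52 ± 0.035 and -0.28 ± 0.035). No tested gene of this list reached 2-fold in any of the 4 comparisons between groups.

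Markers of other cell types were read over the same 72 h, in which 69.9% of all genes were called with EGFP and 74.6% with W20. With EGFP all 6 tested astrocyte markers fell, with W20 4 fell and 2 rose (median -0.98), and Aqp4 and Slc1a2 were at background throughout. Their summed signal went from between 4.64 and 4.74 to between 3.70 and 3.73 with EGFP, and from between 3.76 and 3.79 to between 3.90 and 3.95 with W20. Of 14 tested progenitor markers 6 rose and 4 fell with EGFP (71.4% called), and 7 rose and 4 fell with W20 (78.6%). Both shares lie near those over all genes, but the sizes were larger. At 2-fold or more on the fitted scale, which can include values below background, 6 rose and 3 fell in each kind of cells. Of all genes, 13.3% reached that size with EGFP and 17.8% with W20. The median absolute difference of the progenitor markers was 1.81 with EGFP and 1.83 with W20, and that of all genes 0.31 and 0.36. Oligodendrocyte markers rose in 4 of 7 with EGFP and 5 of 7 with W20, and 1 fell in each (71.4% and 85.7% called). Their summed signal went from between 2.63 and 2.72 in NPC to between 3.24 and 3.58 at 72 h, and Mog was at background. Of the pluripotency markers, Pou5f1 and Dppa3 were at background on all arrays, and the summed signal went from between -0.59 and -0.23 to between -1.05 and -0.70. The immune and endothelial markers Ptprc, Aif1, Pecam1 and Cdh5 were at background on all arrays. Of the 7 in that list 2 were tested, and 1 rose over 72 h with EGFP and 1 with W20, at 2-fold or more. The summed signal of the list went from between -2.90 and -2.77 to between -2.30 and -2.23 with EGFP. With W20 it went from between -2.94 and -2.73 to between -1.83 and -1.67. The part of these cell types in the members' changes was not tested.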

How the data were processed

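The deposited files are 1-colour scanner output; per the file headers the authors extracted them with Agilent Feature Extraction 10.7.3.1, and the intensity used is its background-subtracted processed signal. The authors' deposited value table is on a log2 scale with column medians of -3.91 to -3.73; its NPC columns matched their arrays up to 1 shift per array and its 72 h columns, whose scaling stays unknown, did not, so it served as an alternative for W20 in NPC alone. Here log2 of the intensity minus each array's 75th percentile was fitted with limma 3.58.1 in R 4.3.3 as 4 group means over 8 arrays (4 residual and 1.76 prior degrees of freedom), with Benjamini-Hochberg adjustment over 13615 genes and an adjusted p threshold of 0.05. All adjusted p-values are limma's. The brightest probe stood for a gene; control spots and outlier spots were left out. Of 41174 probes, 27584 were named through RefSeq. A fold against a dim group is a bound, the group's signal being set to the lowest one well above background on each array. Values per probe come from a fit over probes. All members are described; of the other neuronal and REST genes, those named had the 2 largest called differences in each direction of a comparison. Alternatives were other scalings, background, filters, probe choice, a replicate block and each array left out. The members, lists and rules were chosen with earlier results of these data known. Over the tested genes, same-numbered replicates did not deviate together from their group means (correlations from -0.085 to 0.106). Such deviations can be mostly array noise, so this cannot decide whether the numbers pair the arrays. The number of arrays limits the precision.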

Additional observations from a re-analysis of the deposited data

Results flagged for a closer look

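For 8 members the W20 effect at 72 h differed from that in NPC by limma's test of the difference itself, given here as the log2 effect at 72 h minus that in NPC. Elavl3 differed by 1.29 (adjusted p = 0.000379), its W20 arrays standing 1.59 above the EGFP arrays at 72 h and 0.30 above them in NPC. All 4 NPC arrays were below background for Elavl3, so neither the size nor the call is a measured difference between the stages. Map2 differed by 1.15 (adjusted p = 0.00164), from -0.98 in NPC to 0.17 at 72 h. Syt1 differed by 0.83 (adjusted p = 0.0051), from -0.82 to 0.01. The pair Dlx1 and Dlx2 differed by 0.65 (adjusted p = 0.0181) and 0.48 (adjusted p = 0.0171), with W20 lower at both stages. Gad2 differed by 0.38 (adjusted p = 0.022), from -0.61 to -0.23, and Stmn2 by 0.27 (adjusted p = 0.0249), from -0.01 to 0.27. The other Gad2 probe differed by 0.29 ± 0.715 and did not pass. Of 16 alternatives, the call ended under 11 for Stmn2, 10 for Gad2, 5 for Dlx1, 3 for Dlx2 and 1 for Syt1. Nefl went the other way, by -0.66 (adjusted p = 0.00701), from 1.20 to 0.54. Each stage was hybridised on a slide of its own, and the part of the slide in these differences was not tested.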

How the results depend on the processing

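Under every alternative run, 8 of 11 called members kept their call for W20 in NPC, 5 of 11 for W20 at 72 h, 10 of 19 for the change with EGFP, 15 of 18 for the change with W20 and 3 of 8 for the difference of the W20 effects. With 1 array left out at a time, the members higher and lower numbered 2 to 4 and 8 to 10 for W20 in NPC, 3 to 5 and 5 to 8 for W20 at 72 h, 10 to 11 and 4 to 9 for the change with EGFP, and 12 to 13 and 5 to 6 for the change with W20. For the difference they numbered 3 to 7 positive and 1 to 2 negative, the negative count being 2 without EGFP NPC replicate 2, W20 NPC replicate 1, W20 NPC replicate 2 or W20 72 h replicate 1. Members higher with W20 in NPC were 5 with median scaling, 1 with normexp and 4 with the replicate block. Those higher at 72 h were 2 with spike-in scaling and 3 among members above background on all arrays, a filter that tests 15. Members that rose with EGFP were 7 with normexp and 6 with that filter, those that fell 5 with median scaling and 5 with no filter, and those that rose with W20 7 with that filter. Negative differences were 2 with median scaling, with spike-in scaling, with that filter and with the replicate block. Reversed values numbered 3: Elavl3 with W20 in NPC (-0.19, normexp), Stmn4 with EGFP (-0.08, normexp) and Vamp2 with EGFP (-0.14, mean of its probes). Over all genes spike-in scaling called 4344 in place of 7549 for W20 in NPC, 3747 in place of 7181 at 72 h and 1710 in place of 4198 for the difference, which was 2686 with median scaling. The cause of these moves was not tested, apart from the smaller number of genes under the filter. The slide block was not run, since each stage is on 1 slide. Genes near background are limited by signal: 12 members did not pass the filter, and folds of dim groups are bounds.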
